A study of Mus musculus with 12 samples.

Results

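Cytochrome P450 enzymes (P450s) were followed in mouse lung through the 93 protein-coding genes whose symbol is Cyp, a number, a letter and a number, out of 54532 genes in the deposited count table. They belong to 16 families and 38 subfamilies. Poly(A) RNA of whole lung was sequenced, with 3 libraries in each of 4 groups. Control mice carried Cc10-Cre, and the other genotype, labelled as a RhoA conditional knockout (CKO), was Cc10-Cre;Rhoafl/fl. Mice of each genotype received PBS or a treatment that the labels name only as CRE. The Cre transgene is shared by all 4 groups. Its promoter, from *Cc10* (now *Scgb1a1*), is active in club cells, the secretory cells of the bronchioles, while the RNA came from all cells of the lung. The labels give no age, dose or time, and they do not say whether replicates were separate animals. By Y-linked counts each group but control PBS held both sexes, so the libraries of such a group cannot all come from a single animal. Beyond that the source of the replicates is not known. The p-values measure the spread between these libraries, which may in part be technical.

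P450s are heme enzymes that insert oxygen into lipophilic substrates. Those of the endoplasmic reticulum draw electrons from P450 oxidoreductase (*Por*), those of mitochondria from ferredoxin. Many members act on drugs and other foreign compounds, others on fatty acids, sterols, steroid hormones, retinoic acid or vitamin D. In the mouse lung, club cells are rich in P450s, and *Cyp2f2* is the enzyme that activates naphthalene there.

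Capitals in the promoters below mark matches, on either strand, to short motifs of factors with textbook links to P450 genes or airway cells: GCGTG (the core of the AhR-ARNT site), CAAGTG (NKX2-1) and TTGCNNAA (C/EBP). They are shown for 4 genes whose RNA fell with CRE. Each is the stretch of 250 bases before the start site, on the plus strand, from RefSeq on GRCm38.p6. The windows are chr7:27119705-27119954 for *Cyp2f2*, chr7:25897408-25897657 for *Cyp2b10*, chr7:26835089-26835338 for *Cyp2a5* and chr9:57697363-57697612 for *Cyp1a1*.
Cyp2f2: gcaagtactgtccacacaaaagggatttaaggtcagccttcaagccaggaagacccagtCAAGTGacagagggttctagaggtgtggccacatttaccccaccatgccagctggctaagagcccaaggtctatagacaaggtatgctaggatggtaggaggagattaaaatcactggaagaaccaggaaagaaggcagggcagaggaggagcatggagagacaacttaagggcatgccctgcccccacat
Cyp2b10: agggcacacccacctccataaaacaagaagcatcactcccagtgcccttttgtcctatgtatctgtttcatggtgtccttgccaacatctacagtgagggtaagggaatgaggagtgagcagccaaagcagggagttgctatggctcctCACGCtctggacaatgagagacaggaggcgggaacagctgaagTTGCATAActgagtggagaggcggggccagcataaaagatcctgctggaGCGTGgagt
Cyp2a5: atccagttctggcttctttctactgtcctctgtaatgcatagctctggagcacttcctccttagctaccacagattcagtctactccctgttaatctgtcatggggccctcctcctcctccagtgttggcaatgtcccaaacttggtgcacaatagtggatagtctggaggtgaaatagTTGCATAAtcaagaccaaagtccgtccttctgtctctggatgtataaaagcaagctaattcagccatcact
Cyp1a1: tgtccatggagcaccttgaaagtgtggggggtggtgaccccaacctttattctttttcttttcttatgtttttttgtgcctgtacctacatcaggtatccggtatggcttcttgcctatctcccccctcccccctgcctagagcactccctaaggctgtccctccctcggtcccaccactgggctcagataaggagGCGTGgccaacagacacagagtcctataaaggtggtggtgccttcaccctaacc
The match of *Cyp1a1* to GCGTG starts at position -54 from the start site and that of *Cyp2f2* to CAAGTG at -191. *Cyp2b10* and *Cyp2a5* both hold TTGCATAA, at -58 and -71. *Cyp2b10* also holds the GCGTG core once on each strand, the nearer match at -9.

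Such matches occur in many promoters. Entries of 300 bases (250 before and 50 after the start) matched 72 of the 93 genes by symbol, among them 16 of the 20 that fell with CRE in controls. Of these 16, 4 held GCGTG, 5 CAAGTG, 5 TTGCNNAA and 0 TGTTTAC (a FOXA motif). Of the 6 that rose in controls 5 had an entry, and 2 held GCGTG, 1 TTGCNNAA and 0 either of the other motifs. Over 32851 promoters of that length the shares were 32.4% for GCGTG, 13.6% for CAAGTG, 10.8% for TTGCNNAA and 3.65% for TGTTTAC. These shares are per entry, while a P450 gene was counted if any of its entries held the motif. A match is a description of letters and not a measured site.

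Library totals ran from 16250674 to 21559210 counts, and levels are given as CPM, counts scaled to a common library total. A gene is called changed where the quasi-likelihood test of edgeR gave a Benjamini-Hochberg adjusted p below 0.05 over the 17473 genes that passed its low-count filter. Of the 93 P450s, 34 passed, from 12 families. *Rhoa*, the floxed gene, was at 494, 474 and 486 CPM in control PBS libraries and at 479.8, 399 and 479 CPM in CKO PBS libraries, a log2 difference of -0.10 ± 0.10 (SE) that was not called (adjusted p = 1.0). Under CRE the difference was -0.07 ± 0.10 (adjusted p = 0.728), so whole-lung counts of *Rhoa* did not separate the genotypes. In the summed P450 level replicate 2 of the CKO CRE group stood apart from its partners (668 against 1057 and 1089 CPM). It lay near the control CRE libraries there (678 to 722 CPM). The replicate was singled out by such values. Therefore p-values without it, which rest on CKO CRE replicates 1 and 3, are descriptive and no independent test. Results that rest on it are given with and without it. By Y-linked counts the control PBS libraries were all male and each other group held both sexes. Replicate 1 was male and replicates 2 and 3 female in both CRE groups, and replicate 2 was the female library of the CKO PBS group. *Scgb1a1*, the defining club cell gene, was at 39.9, 34.8 and 32.5 CPM in control PBS libraries, against 2286, 2430.0 and 2280.0 CPM for *Scgb3a2*, another secretoglobin of these cells. Alveolar type 2 markers, which mark lung tissue, summed to 26410.0 to 29160.0 CPM there.

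A few genes made up most of the lung's P450 RNA. Per kilobase of exon (RPKM), *Cyp2f2* led in control PBS lungs with a mean of 554. It was followed by *Cyp4b1*, a hydroxylase of fatty acids and foreign compounds, at 215 RPKM and *Cyp2b10*, the phenobarbital-inducible enzyme, at 122 RPKM. *Cyp2s1* at 25.2 RPKM and *Cyp1a1*, the classical target of the aryl hydrocarbon receptor, at 23.6 RPKM came far lower. In that group 26 of the 93 genes reached 1 RPKM and 4 exceeded 100 CPM.

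The summed P450 level was 2358, 2391 and 2496 CPM in control PBS libraries and 2037, 2068 and 1895 CPM in CKO PBS libraries. With CRE it was 697, 722 and 678 CPM in controls and 1057, 668 and 1089 CPM in CKO lungs. No CRE library reached the lowest PBS library, and replicate 2 of the CKO CRE group lay below every control CRE library. *Cyp2f2* alone made up 45.4 to 48.1% of the sum in control PBS lungs, 38.1 to 39.7% in CKO PBS lungs and 16.4 to 18.3% in control CRE lungs. Without *Cyp2f2* the sum in controls was 1224 to 1347 CPM with PBS and 563 to 603 CPM with CRE.

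**Figure D1:**
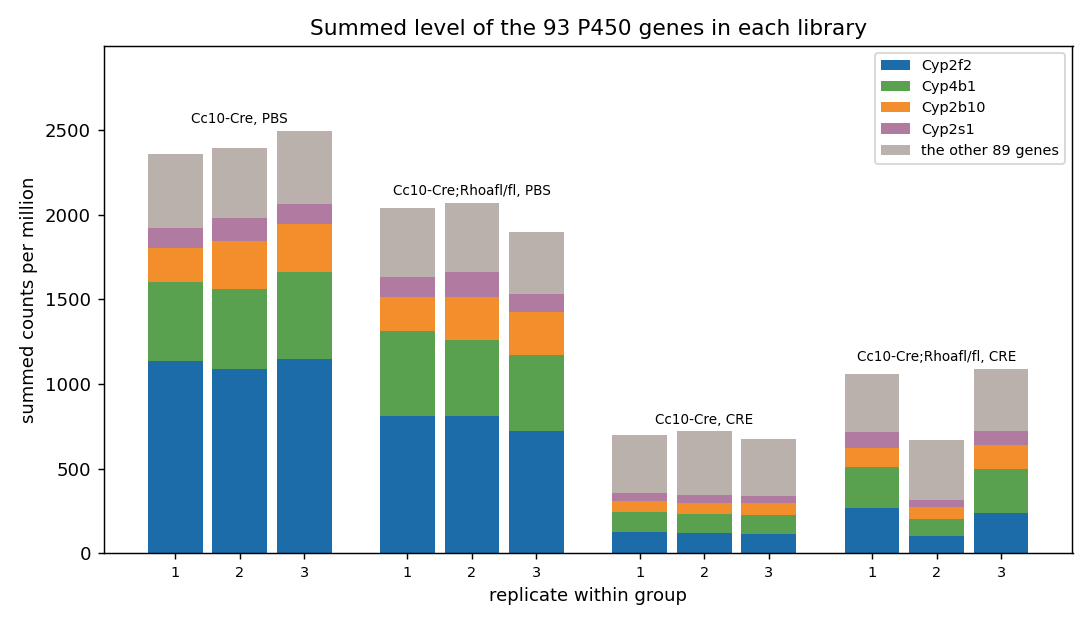
Summed level of the 93 P450 genes in each of the 12 libraries (CPM), split into the most abundant genes and the rest. The sum was 2358 to 2496 in control PBS libraries and 678 to 722 in control CRE libraries.

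With CRE most tested P450s fell in control lungs. Of the 34, 20 fell and 6 rose, while 28.4% of all tested genes fell and 28.6% rose. The median log2 fold change of the 34 was -0.95, against 0.01 over all tested genes. Every CRE library lay below every PBS library in 20 of them (in 36.1% of all tested genes) and above in 5 (in 32.3%). With sex as a covariate 18 fell and 4 rose. In bulk RNA, fewer cells of a type and less RNA per cell cannot be told apart.

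**Figure D2:**
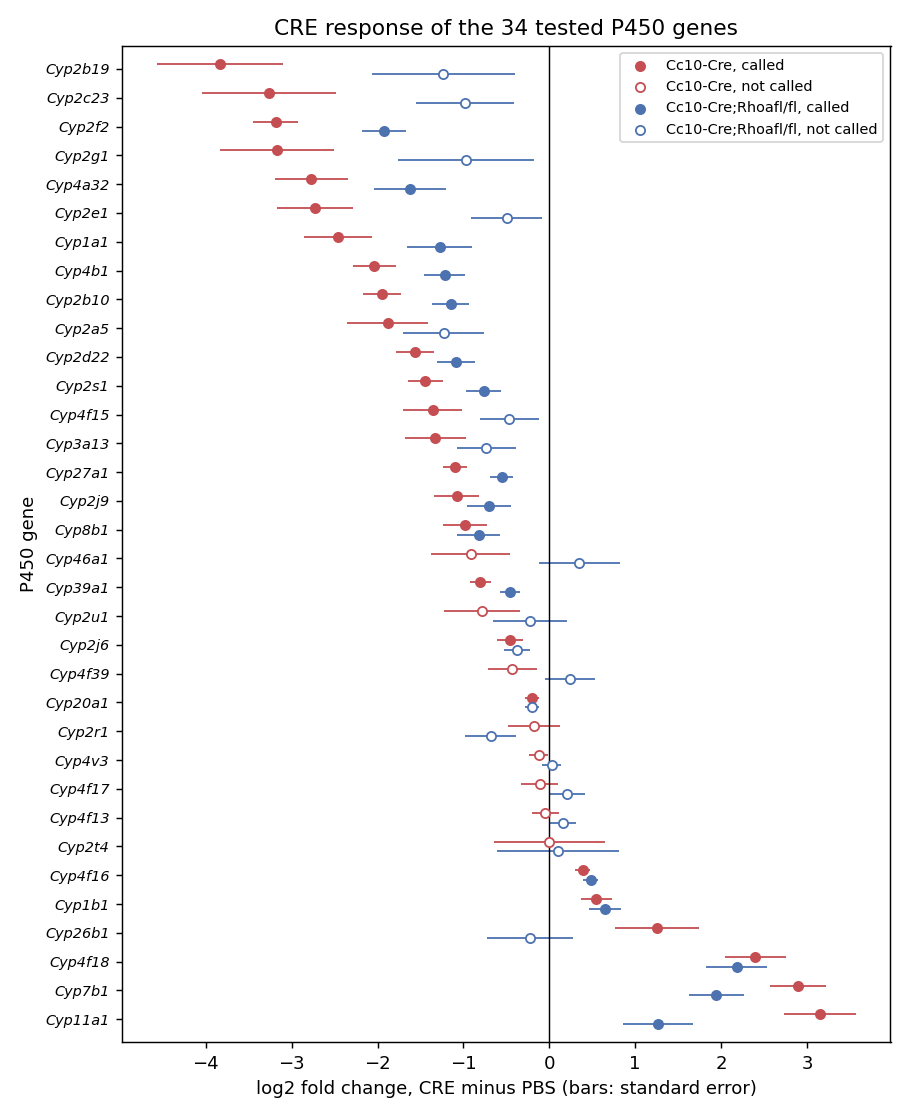
Log2 fold change of CRE over PBS with its standard error for the 34 tested P450 genes, in Cc10-Cre controls and in Cc10-Cre;Rhoafl/fl lungs. In controls 20 genes fell and 6 rose, and in CKO lungs 11 fell and 5 rose.

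Of 46 P450s assigned to the metabolism of foreign compounds 12 were tested, and 11 of these fell in controls, against 28.4% of all tested genes. The epoxygenases *Cyp2b19* and *Cyp2c23* were counted in this role, while the epoxygenase *Cyp2j9* was counted under fatty acids and eicosanoids. Counts by role depend on this assignment. *Cyp2f2* was at 1134, 1086 and 1149 CPM with PBS and at 128, 118 and 115 CPM with CRE. It fell by 3.19 ± 0.27 on the log2 scale (adjusted p = 8.95e-06), a 9.10-fold drop. *Cyp2b10* was at 205, 284 and 281 CPM with PBS and at 64.6, 64.3 and 66.1 CPM with CRE (log2 change -1.94 ± 0.22, adjusted p = 4.29e-05). *Cyp1a1* was at 70.4, 61.2 and 65.5 CPM with PBS and at 11.3, 13.0 and 10.6 CPM with CRE (log2 change -2.46 ± 0.40, adjusted p = 0.00034). In all 3 genes the CRE libraries were close together and far below the PBS libraries.

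*Cyp2s1* is another dioxin-inducible member. It was at 118, 135 and 119.7 CPM with PBS and at 47.1, 45.5 and 41.2 CPM with CRE (log2 change -1.44 ± 0.21, adjusted p = 0.000167). *Cyp2d22* was at 47.0, 48.0 and 44.5 CPM with PBS and at 16.1, 15.0 and 14.8 CPM with CRE (log2 change -1.56 ± 0.22, adjusted p = 0.000163). The latter belongs to the subfamily of the human debrisoquine hydroxylase, and neither gene had overlapping groups. *Cyp2a5*, a coumarin and nicotine hydroxylase, was at 26.4, 31.1 and 36.4 CPM with PBS and at 11.7, 5.77 and 7.42 CPM with CRE (log2 change -1.88 ± 0.47, adjusted p = 0.00504). Its transcript is 98.2% identical to Cyp2a4 over 1739 bases, so its counts are uncertain.

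*Cyp2e1*, the ethanol-inducible enzyme, was at 7.31, 7.84 and 10.3 CPM with PBS and at 2.58, 0.55 and 0.67 CPM with CRE (log2 change -2.73 ± 0.45, adjusted p = 0.000377). Replicate 1, the male library of the control CRE group, was the highest CRE library, and without it the log2 change was -3.75. With sex as a covariate it was -2.52 (adjusted p = 0.00182). *Cyp3a13*, a member of the main drug-metabolising family, was at 2.40, 4.55 and 4.07 CPM with PBS and at 1.23, 1.98 and 1.08 CPM with CRE (log2 change -1.33 ± 0.35, adjusted p = 0.00692).

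The other 3 were so low with CRE that they are given as counts. *Cyp2b19*, an arachidonate epoxygenase of keratinocytes, had 50 counts over the 3 PBS libraries and 3 over the 3 CRE libraries, a ratio per total count of 16.0 (95% exact interval 5.16 to 80.0), with adjusted p = 0.000984 in the edgeR fit. By library its counts were 14, 16 and 20 with PBS and 0, 1 and 2 with CRE in controls, and 5, 3 and 4 with PBS and 3, 0 and 1 with CRE in CKO lungs, where it was not called (adjusted p = 0.258). *Cyp2c23*, an epoxygenase best known from kidney, had 34 counts over the 3 PBS libraries and 3 over the 3 CRE libraries, a ratio per total count of 10.9 (95% exact interval 3.41 to 55.2), with adjusted p = 0.00381 in the edgeR fit. By library its counts were 11, 10 and 13 with PBS and 1, 2 and 0 with CRE in controls, and 10, 23 and 11 with PBS and 6, 10 and 2 with CRE in CKO lungs, where it was not called (adjusted p = 0.193). *Cyp2g1*, an enzyme of the olfactory mucosa, had 42 counts over the 3 PBS libraries and 4 over the 3 CRE libraries, a ratio per total count of 10.1 (95% exact interval 3.65 to 38.6), with adjusted p = 0.00171 in the edgeR fit. By library its counts were 18, 13 and 11 with PBS and 2, 2 and 0 with CRE in controls, and 2, 6 and 2 with PBS and 2, 1 and 1 with CRE in CKO lungs, where it was not called (adjusted p = 0.355). The intervals cover counting error only. In CKO lungs limma-voom called *Cyp2c23* (-1.88, adjusted p = 0.00952). *Cyp2g1* is 98.4% identical to Gm44964 over 244 bases, so its counts are uncertain too. Leaving out 1 CRE library moved the fitted log2 change of *Cyp2c23* to -4.09 (replicate 2) and that of *Cyp2b19* to -4.65 (replicate 3).

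*Cyp1b1*, which metabolises hydrocarbons and estradiol and is a target of the same receptor as *Cyp1a1*, was the gene of this role that rose. It was at 13.3, 10.98 and 13.3 CPM with PBS and at 19.9, 18.8 and 15.1 CPM with CRE (log2 change 0.55 ± 0.18, adjusted p = 0.0235). On the list of the receptor and its other targets, 4 of 10 tested genes fell and 0 rose (of all tested genes 28.6% rose and 28.4% fell). *Ahr*, the receptor, was at 97.7 ± 8.62 CPM with PBS and 92.96 ± 3.18 CPM with CRE (SD, n = 3) and was not called (log2 change -0.03 ± 0.15, adjusted p = 0.868 by edgeR). *Nqo1*, a quinone reductase, fell by 1.32 ± 0.17 on the log2 scale (adjusted p = 9.08e-05). *Tiparp*, an ADP-ribosyltransferase that restrains the receptor, fell by 0.59 ± 0.11 on the log2 scale (adjusted p = 0.00099).

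Among 12 tested P450s of fatty acid and eicosanoid metabolism, 5 fell and 2 rose in controls, against 28.4% and 28.6% of all tested genes. *Cyp4b1* was at 465, 475 and 513 CPM with PBS and at 115, 115 and 115 CPM with CRE (log2 change -2.04 ± 0.25, adjusted p = 6.83e-05). *Cyp4a32*, a fatty acid omega-hydroxylase, was at 1.43, 1.87 and 3.48 CPM with PBS and at 0.368, 0.22 and 0.361 CPM with CRE (log2 change -2.77 ± 0.43, adjusted p = 0.000256), and it is 98% identical to Cyp4a10 over 1153 bases. *Cyp4f15* was at 4.50, 4.25 and 4.84 CPM with PBS and at 2.03, 1.71 and 1.44 CPM with CRE (log2 change -1.36 ± 0.34, adjusted p = 0.00504). None of the 3 had overlapping groups. The arachidonate epoxygenase *Cyp2j9* was at 4.71, 4.66 and 5.49 CPM with PBS and at 2.21, 1.76 and 2.83 CPM with CRE (log2 change -1.08 ± 0.26, adjusted p = 0.00416). Its neighbour *Cyp2j6* moved less (log2 change -0.46 ± 0.15, adjusted p = 0.0217).

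The 2 that rose were both Cyp4f genes, whose products hydroxylate leukotriene B4 and related eicosanoids. *Cyp4f18*, the neutrophil leukotriene B4 hydroxylase, was at 12.8, 10.8 and 10.2 CPM with PBS and at 60.2, 73.5 and 41.2 CPM with CRE (log2 change 2.40 ± 0.35, adjusted p = 0.000196). Of 6 neutrophil markers 5 were tested and 5 rose, against 28.6% of all tested genes. Their summed level was 60.0 to 91.7 CPM with PBS and 239 to 411 CPM with CRE. The sum of 10 macrophage markers was 585 to 696 and 2263 to 2521 CPM. In CKO lungs 1 of the 5 neutrophil markers rose, against 20.6% of all tested genes. Their sum there was 187, 346 and 93.6 CPM with PBS and 238, 401 and 136 CPM with CRE. Their part in the rise of *Cyp4f18* was not tested. *Cyp4f18* shares 181 exon bases with *Zfp961* on the other strand, which was at 8.99 to 15.0 CPM over all libraries. *Cyp4f16* was at 21.8, 20.5 and 21.1 CPM with PBS and at 26.6, 29.5 and 25.0 CPM with CRE (log2 change 0.39 ± 0.09, adjusted p = 0.0026), and it is 98.2% identical to Cyp4f37 over 776 bases. *Cyp4v3*, the most abundant member of this role that was not called, was at 55.0, 50.8 and 51.9 CPM with PBS and at 48.2, 41.6 and 51.0 CPM with CRE (log2 change -0.12 ± 0.11, adjusted p = 0.358).

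Of 5 tested sterol and bile acid P450s, 3 fell and 1 rose in controls, against 28.4% and 28.6% of all tested genes. *Cyp27a1*, the mitochondrial sterol side-chain hydroxylase, was at 22.2, 23.8 and 24.5 CPM with PBS and at 9.33, 13.4 and 9.38 CPM with CRE (log2 change -1.10 ± 0.14, adjusted p = 7.45e-05). *Cyp39a1*, an oxysterol hydroxylase, fell by 0.80 ± 0.12 on the log2 scale (adjusted p = 0.000229). *Cyp8b1*, the sterol hydroxylase of bile acid synthesis, fell by 0.98 ± 0.26 on the log2 scale (adjusted p = 0.00612). *Cyp7b1*, which hydroxylates side-chain oxysterols, went the other way. It was at 3.79, 3.95 and 4.90 CPM with PBS and at 29.8, 30.9 and 30.8 CPM with CRE, a 7.43-fold rise (log2 change 2.89 ± 0.33, adjusted p = 4.29e-05).

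Of 8 tested genes of the oxysterol pathway 3 rose and 1 fell (of all tested genes 28.6% rose and 28.4% fell). *Ch25h*, the enzyme upstream of *Cyp7b1* on cholesterol, was at 6.29, 7.09 and 6.198 CPM with PBS and at 141, 162 and 124 CPM with CRE (log2 change 4.48 ± 0.45, adjusted p = 2.2e-05). *Gpr183*, an oxysterol receptor of immune cells, rose by 1.30 ± 0.27 on the log2 scale (adjusted p = 0.00176). *Abcg1*, a sterol exporter, fell by 0.80 ± 0.17 on the log2 scale (adjusted p = 0.00193).

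*Cyp11a1*, the side-chain cleavage enzyme that begins steroid synthesis, was low and rose. It was at 0.358, 0.253 and 0.177 CPM with PBS and at 2.39, 3.02 and 1.65 CPM with CRE (log2 change 3.15 ± 0.42, adjusted p = 0.000104). It was the 1 gene tested of 6 steroid hormone P450s. On the list of other steroid synthesis genes 2 of 9 tested rose and 3 fell (of all tested genes 28.6% rose and 28.4% fell). *Hsd11b2*, which inactivates corticosterone, rose by 2.05 ± 0.24 on the log2 scale (adjusted p = 5.12e-05), and *Hsd11b1*, which regenerates it, fell by 1.06 ± 0.21 on the log2 scale (adjusted p = 0.00108). *Star*, which brings cholesterol to *Cyp11a1*, fell by 0.59 ± 0.19 on the log2 scale (adjusted p = 0.0176).

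*Cyp26b1*, which breaks down retinoic acid, was called higher although its groups overlapped. It was at 19.9, 9.72 and 5.72 CPM with PBS and at 9.52, 37.1 and 35.6 CPM with CRE (log2 change 1.25 ± 0.49, adjusted p = 0.0452), with CRE replicate 1 inside the PBS range. That replicate was the male library of its group, and the PBS libraries were all male. Sex and library cannot be told apart here. The call was lost without any of 8 of the 12 libraries (PBS replicates 2 and 3 and CRE replicates 2 and 3 of the controls, replicates 2 and 3 of the CKO PBS group and 1 and 3 of the CKO CRE group), with adjusted p between 0.0501 and 0.153. It was also lost with sex as a covariate (0.96, adjusted p = 0.232), with the replicate block (1.36, adjusted p = 0.0534) and by limma-voom (0.59, adjusted p = 0.29). Without PBS replicate 1 the log2 change was 1.85. Of 18 tested genes of the retinoic acid pathway 6 rose and 5 fell, shares close to those of all tested genes, 28.6% and 28.4%. *Aldh1a1*, the abundant retinaldehyde dehydrogenase, fell by 1.96 ± 0.20 on the log2 scale (adjusted p = 2.36e-05) and *Aldh1a3*, a low one, rose by 3.40 ± 0.22 on the log2 scale (adjusted p = 1.55e-06).

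*Cyp20a1*, which has no assigned substrate, had the smallest called change. It was at 36.9, 36.6 and 33.8 CPM with PBS and at 31.1, 30.6 and 29.1 CPM with CRE (log2 change -0.20 ± 0.08, adjusted p = 0.0461). The call was lost without any of 9 libraries (all but PBS replicate 3 of the controls and replicates 1 and 2 of the CKO CRE group), with adjusted p between 0.0509 and 0.122. It was also lost with sex as a covariate (adjusted p = 0.152), with the replicate block (0.0649), with DESeq2 size factors (0.0511) and without the low-count filter (0.226). *Cyp2r1*, the first enzyme of vitamin D activation, was not called (log2 change -0.18 ± 0.30, adjusted p = 0.634). Of 6 tested vitamin D pathway genes 2 rose and 1 fell (of all tested genes 28.6% rose and 28.4% fell), and *Vdr*, the receptor, rose by 1.81 ± 0.22 on the log2 scale (adjusted p = 6.92e-05). Outside the symbol rule, *Tbxas1* (thromboxane synthase) rose by 2.05 ± 0.22 on the log2 scale (adjusted p = 3.28e-05), *Cyp51* (lanosterol demethylase) rose by 0.89 ± 0.10 on the log2 scale (adjusted p = 4.62e-05) and *Ptgis* (prostacyclin synthase) fell by 0.33 ± 0.12 on the log2 scale (adjusted p = 0.0283).

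**Figure D3:**
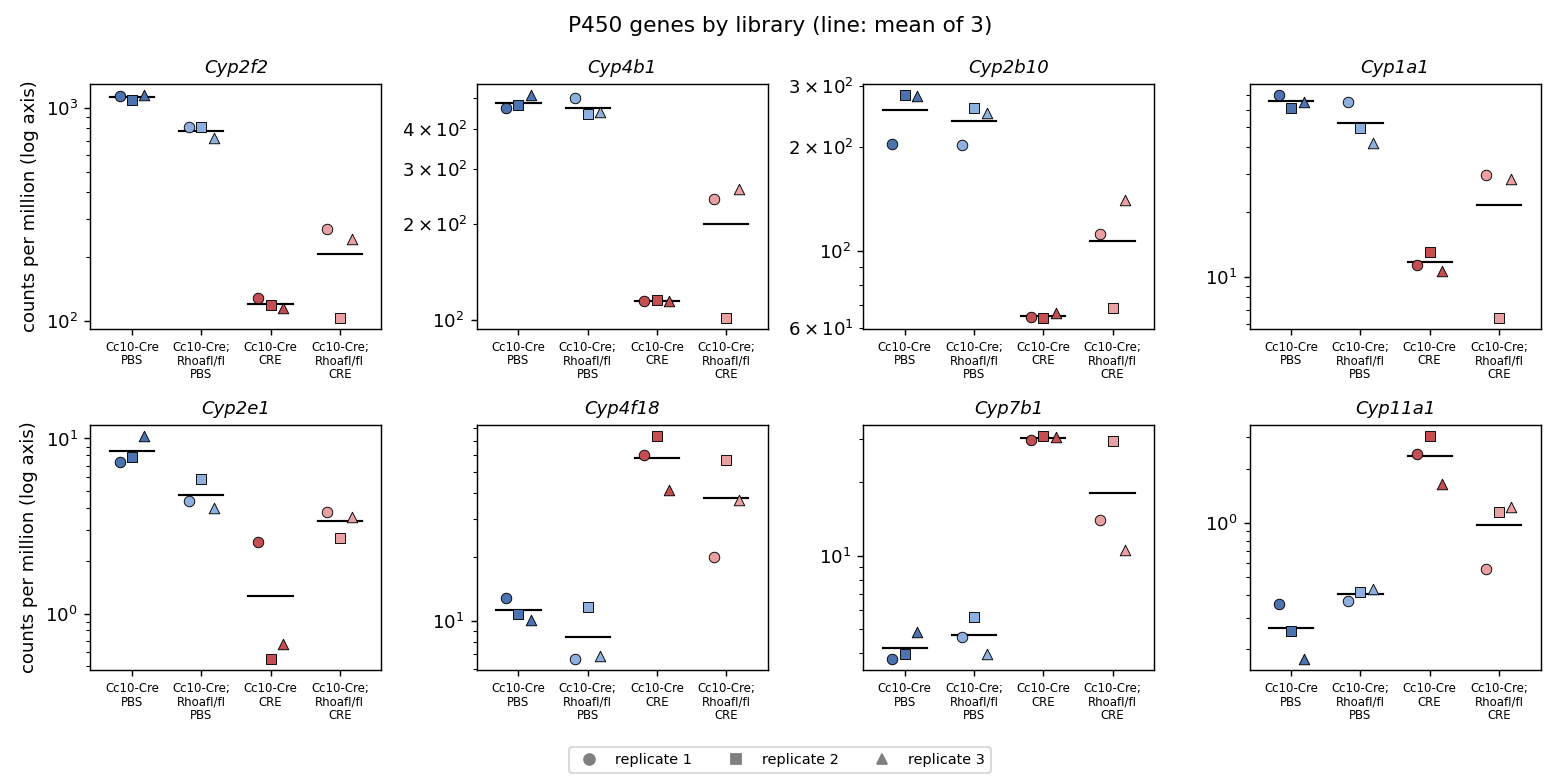
Level of selected P450 genes in each library (CPM, log axis) by group, with the group mean. *Cyp2f2* lay at 1134, 1086 and 1149 in control PBS libraries and at 128, 118 and 115 in control CRE libraries.

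Markers of several cell types moved with the P450s. Of 9 club cell markers 8 fell in controls and 5 in CKO lungs, against 28.4% and 18.5% of all tested genes. Of 10 ciliated cell markers 8 fell in controls and 1 in CKO lungs. The club marker sum was 2743 to 2895 CPM in control PBS and 1447 to 2183 CPM in CKO PBS libraries. With CRE it was 429 to 482 CPM in control libraries and 858, 419 and 600.1 CPM in CKO libraries. *Scgb3a2* fell by 3.61 ± 0.30 on the log2 scale (adjusted p = 8.66e-06) in controls and *Pon1* by 4.92 ± 0.26 on the log2 scale (adjusted p = 3.78e-07). In control PBS libraries most of the club marker sum came from *Scgb3a2* alone. *Cyp2f2* per 100 CPM of the club marker sum was 37.5 to 41.9 in control PBS and 23.8 to 29.8 in control CRE libraries, ranges that do not overlap. In CKO libraries the ratio was 55.9, 37.1 and 33.6 with PBS and 31.5, 24.6 and 40.2 with CRE, which do overlap. In controls alveolar type 1 markers summed to 4552 to 5336 CPM with PBS and 1845 to 2207 CPM with CRE. Endothelial markers summed to 4232 to 4475 and 2275 to 2370.0 CPM, and goblet markers to 92.2 to 172 and 1338 to 1906 CPM. The part of these cells in the P450 changes was not tested.

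**Figure D4:**
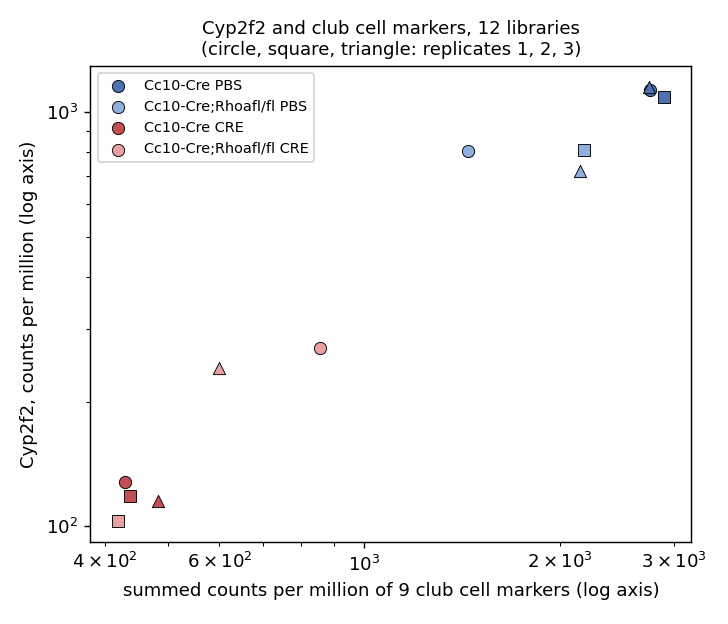
*Cyp2f2* against the summed level of the club cell markers in each library (CPM). Control PBS libraries lie at 2743 to 2895 for the marker sum and control CRE libraries at 429 to 482. In control PBS libraries most of that sum came from *Scgb3a2*.

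In CKO lungs CRE gave fewer calls. Of the 34 tested P450s 11 fell and 5 rose, against 18.5% and 20.6% of all tested genes, with a median log2 change of -0.48 against 0.00. All 16 were also called in controls, with the same sign, and 14 of them had the smaller change in CKO lungs. How many of all tested genes had the smaller change in CKO lungs was not counted. Calls over all tested genes numbered 9959 in controls and 6830 in CKO lungs. Another 10 were called in controls alone and 0 in CKO lungs alone, which is no test of a difference. Without replicate 2 of the CKO CRE group 9 fell and 3 rose, against 14.2% and 15.7% of the genes then tested.

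*Cyp2f2* was at 808, 811 and 721 CPM with PBS and at 270.1, 103 and 241 CPM with CRE (log2 change -1.93 ± 0.25, adjusted p = 0.000284). Without CRE replicate 2 the log2 change was -1.61, adjusted p = 6.79e-07. *Cyp4b1* was at 502, 446 and 453 CPM with PBS and at 241, 101.4 and 258 CPM with CRE (log2 change -1.22 ± 0.24, adjusted p = 0.00288). In both genes that replicate was the lowest library. *Cyp2b10* was at 203, 259 and 252 CPM with PBS and at 112, 68.5 and 141 CPM with CRE (log2 change -1.15 ± 0.21, adjusted p = 0.00202). *Cyp2d22* was at 52.0, 41.4 and 44.1 CPM with PBS and at 27.1, 11.9 and 25.7 CPM with CRE (log2 change -1.09 ± 0.22, adjusted p = 0.00295). Both were again lowest in CRE replicate 2, and none of these 4 genes had overlapping groups.

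*Cyp1a1* was at 64.9, 49.5 and 42.0 CPM with PBS and at 29.7, 6.42 and 28.5 CPM with CRE (log2 change -1.27 ± 0.38, adjusted p = 0.0197). The call was lost without PBS replicate 1 (adjusted p = 0.0677). *Cyp2s1* was at 118, 148 and 106 CPM with PBS and at 92.4, 44.8 and 81.3 CPM with CRE (log2 change -0.77 ± 0.20, adjusted p = 0.0115). CRE replicate 2 was the lowest library for each of them. With only the groups compared neither was called (adjusted p = 0.0914 and 0.064). *Cyp27a1* was at 23.5, 22.6 and 24.5 CPM with PBS and at 14.7, 15.5 and 17.7 CPM with CRE (log2 change -0.55 ± 0.14, adjusted p = 0.00778). *Cyp39a1* and *Cyp8b1* fell by 0.46 ± 0.12 on the log2 scale (adjusted p = 0.0111) and 0.82 ± 0.25 on the log2 scale (adjusted p = 0.0228). The CRE libraries of *Cyp27a1* all lay below its PBS libraries.

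The 5 genes that rose in CKO lungs also rose in controls. *Cyp7b1* was at 4.65, 5.61 and 3.97 CPM with PBS and at 14.03, 29.6 and 10.6 CPM with CRE (log2 change 1.94 ± 0.32, adjusted p = 0.000984). *Cyp4f18* was at 6.66, 11.7 and 6.89 CPM with PBS and at 19.9, 56.7 and 36.7 CPM with CRE (log2 change 2.18 ± 0.36, adjusted p = 0.00096). CRE replicate 2 was the highest library for both, and without it the log2 changes were 1.36 and 1.75. *Cyp11a1* was at 0.37, 0.417 and 0.43 CPM with PBS and at 0.554, 1.15 and 1.23 CPM with CRE (log2 change 1.27 ± 0.41, adjusted p = 0.0272), and it was no longer called without any of 5 libraries (PBS replicates 1, 2 and 3 and CRE replicates 2 and 3), with adjusted p from 0.0614 to 0.0905. Its call was also lost with sex as a covariate (adjusted p = 0.0641), with only the groups compared (0.0676) and without the low-count filter (0.0527). *Cyp4f16* and *Cyp1b1* rose by 0.48 ± 0.09 on the log2 scale (adjusted p = 0.00167) and 0.65 ± 0.18 on the log2 scale (adjusted p = 0.0159).

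For 3 further genes the call in CKO lungs, or its absence, rested on single libraries, while *Cyp4a32* kept its call with each left out. *Cyp4a32* was at 1.69, 1.21 and 1.00 CPM with PBS and at 0.431, 0.459 and 0.352 CPM with CRE (log2 change -1.62 ± 0.42, adjusted p = 0.0106). *Cyp2j9* was at 5.29, 3.66 and 5.26 CPM with PBS and at 2.89, 2.06 and 3.70 CPM with CRE (log2 change -0.71 ± 0.26, adjusted p = 0.0471). The groups of *Cyp2j9* overlapped, and its call was lost without any of 8 libraries (the 3 control PBS libraries, control CRE replicate 1, CKO PBS replicates 1 and 3 and CKO CRE replicates 1 and 2), with adjusted p from 0.062 to 0.16, and with sex as a covariate (adjusted p = 0.0987), with only the groups compared (0.104), without the low-count filter (0.0792) and by limma-voom (0.0697). *Cyp2a5* was at 8.99, 36.0 and 15.3 CPM with PBS and at 9.11, 4.47 and 12.2 CPM with CRE (log2 change -1.23 ± 0.47, adjusted p = 0.0548). It was not called, but it was without PBS replicate 1 (-1.59, adjusted p = 0.0179) or CRE replicate 3 (-1.58, adjusted p = 0.0395), and without the low-count filter (-1.21, adjusted p = 0.0109). *Cyp3a13* was at 3.91, 3.48 and 3.30 CPM with PBS and at 1.23, 2.18 and 2.94 CPM with CRE (log2 change -0.73 ± 0.34, adjusted p = 0.106). With each library left out in turn, it was called without CRE replicate 3 alone (-1.04, adjusted p = 0.0478).

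Several genes called in controls were not called in CKO lungs. *Cyp2e1* was at 4.39, 5.89 and 4.02 CPM with PBS and at 3.81, 2.70 and 3.58 CPM with CRE (log2 change -0.50 ± 0.41, adjusted p = 0.357). *Cyp4f15* was at 3.97, 2.78 and 1.63 CPM with PBS and at 2.89, 1.204 and 1.94 CPM with CRE (log2 change -0.46 ± 0.34, adjusted p = 0.299). *Cyp26b1* was at 17.5, 9.51 and 9.80 CPM with PBS and at 11.5, 8.09 and 11.6 CPM with CRE (log2 change -0.23 ± 0.50, adjusted p = 0.744). The PBS libraries of *Cyp2e1* lay below those of the controls, a difference that was not called (adjusted p = 0.967). *Cyp20a1* was at 35.2, 37.1 and 37.6 CPM with PBS and at 33.5, 28.9 and 32.5 CPM with CRE (log2 change -0.21 ± 0.08, adjusted p = 0.0608). *Cyp4v3*, not called in controls either, was at 56.5, 58.6 and 53.2 CPM with PBS and at 49.3, 58.6 and 62.1 CPM with CRE (log2 change 0.03 ± 0.11, adjusted p = 0.872).

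Under PBS the genotypes gave 0 P450 calls by edgeR and 0 by DESeq2, with 0.109% of all tested genes called. At an unadjusted p below 0.05 there were 3 (background 5.32%): *Cyp2b19*, *Cyp2g1* and *Cyp4a32*. The groups of *Cyp4a32* overlapped (log2 difference -0.80 ± 0.36, adjusted p = 0.928). Groups did not overlap in 7 P450s that were lower in CKO lungs and in 2 that were higher. That share over all tested genes was not counted. *Cyp2f2* was not among the 3 (unadjusted p = 0.052 by edgeR). *Cyp2f2* was at 1134, 1086 and 1149 CPM in controls and at 808, 811 and 721 CPM in CKO lungs, groups that did not overlap (log2 difference -0.53 ± 0.24, adjusted p = 0.95). Without replicate 2 of the CKO CRE group, which enters only through the shared estimate of spread, this difference was called (-0.53, adjusted p = 0.0105). limma-voom called it as well (-0.55, adjusted p = 0.0416), with 0.527% of all genes called lower. *Cyp2g1*, at 0.921, 0.658 and 0.649 and 0.106, 0.278 and 0.0956 CPM, and *Cyp2b19*, at 0.716, 0.81 and 1.18 and 0.264, 0.139 and 0.191 CPM, also did not overlap and were not called (adjusted p = 0.339 and 0.379). The club marker sum in these libraries was 2750.0, 2895 and 2743 CPM in controls and 1447, 2183 and 2149 CPM in CKO lungs, and its part was not tested.

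Under CRE the genotypes again gave 0 P450 calls by edgeR with all libraries, with 0.916% of all tested genes called. At an unadjusted p below 0.05 there were 11 (background 18.5%). Of the 34 log2 differences (CKO over control) 27 were above 0, against 8957 of all 17473 tested genes. DESeq2 called 5 higher in CKO lungs, against 3.07% of all genes. limma-voom with quality weights, under which libraries do not count equally, called 12 higher and 3 lower, against 23.0% and 20.8%. Without replicate 2 of the CKO CRE group 8 were higher in CKO lungs and 4 lower, against 15.8% and 12.7% of the genes then tested. The lower ones include *Cyp2a4*, which passed the filter only without that library. That replicate was the most changed CKO CRE library in 18 of the 26 P450s called in controls. How often this held over all tested genes was not counted. Over all tested genes edgeR called 160 with all libraries and 5112 without replicate 2, against 202 without CKO CRE replicate 1 and 61 without replicate 3.

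*Cyp2f2* was at 128, 118 and 115 CPM in control CRE libraries and at 270.1, 103 and 241 CPM in CKO CRE libraries (log2 difference 0.73 ± 0.25, adjusted p = 0.169; without CKO replicate 2, 1.05, adjusted p = 2.06e-05). *Cyp4b1* was at 115, 115 and 115 CPM in control CRE libraries and at 241, 101.4 and 258 CPM in CKO CRE libraries (log2 difference 0.76 ± 0.24, adjusted p = 0.15; without CKO replicate 2, 1.08, adjusted p = 1.1e-05). Replicates 1 and 3 of the CKO group lay above all control libraries in both genes and replicate 2 below. Without CKO replicate 1 or 3 instead, the log2 difference of *Cyp2f2* was 0.50 or 0.59 and was not called (edgeR adjusted p = 0.469 and 0.473). *Cyp1a1* was at 11.3, 13.0 and 10.6 CPM in control CRE libraries and at 29.7, 6.42 and 28.5 CPM in CKO CRE libraries (log2 difference 0.85 ± 0.39, adjusted p = 0.271; without CKO replicate 2, 1.28, adjusted p = 0.000193). *Cyp2e1* was at 2.58, 0.55 and 0.67 CPM in control CRE libraries and at 3.81, 2.70 and 3.58 CPM in CKO CRE libraries (log2 difference 1.40 ± 0.46, adjusted p = 0.157; without CKO replicate 2, 1.53, adjusted p = 0.0328). Replicate 2 stayed above the controls for *Cyp2e1*. The difference of *Cyp2e1* was also called without control CRE replicate 1 (2.42, adjusted p = 0.00969). *Cyp27a1* was at 9.33, 13.4 and 9.38 CPM in control CRE libraries and at 14.7, 15.5 and 17.7 CPM in CKO CRE libraries (log2 difference 0.55 ± 0.14, adjusted p = 0.0844; without CKO replicate 2, 0.56, adjusted p = 0.0166). Its groups did not overlap, and it was called without control CRE replicate 2 (0.72, adjusted p = 0.0322).

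*Cyp2b10*, *Cyp2s1* and *Cyp2d22* were also higher in CKO lungs without CKO replicate 2, and none was called by edgeR with it. Their log2 differences without it were 0.92 (adjusted p = 0.00166), 0.92 (adjusted p = 0.000436) and 0.74 (adjusted p = 0.000431) by edgeR. Replicate 2 lay above all control CRE libraries for *Cyp2b10* (68.5 against 64.6, 64.3 and 66.1 CPM). It lay inside their range for *Cyp2s1* (44.8 against 47.15, 45.5 and 41.2 CPM) and below them for *Cyp2d22* (11.9 against 16.15, 15.0 and 14.8 CPM). With all libraries DESeq2 called *Cyp2b10* and *Cyp2s1* (adjusted p = 0.0472 and 0.0437), and limma-voom called all 3 (adjusted p = 0.000218, 0.000196 and 0.0011). Among the genes that CRE raised, *Cyp7b1* was at 29.8, 30.9 and 30.8 CPM in control CRE libraries and at 14.03, 29.6 and 10.6 CPM in CKO CRE libraries (log2 difference -0.78 ± 0.30, adjusted p = 0.205; without CKO replicate 2, -1.35, adjusted p = 0.000251). *Cyp11a1* was at 2.39, 3.02 and 1.65 CPM in control CRE libraries and at 0.554, 1.15 and 1.23 CPM in CKO CRE libraries (log2 difference -1.28 ± 0.36, adjusted p = 0.118; without CKO replicate 2, -1.42, adjusted p = 0.0271). *Cyp4f18* was at 60.2, 73.5 and 41.2 CPM in control CRE libraries and at 19.9, 56.7 and 36.7 CPM in CKO CRE libraries (log2 difference -0.64 ± 0.33, adjusted p = 0.312; without CKO replicate 2, -1.07, adjusted p = 0.0186). These 3 were lower in CKO lungs once replicate 2 was left out. The macrophage marker sum was 2521, 2485 and 2263 CPM in control CRE and 1559, 2591 and 1851 CPM in CKO CRE libraries. The sum of 8 lymphocyte markers, all of which rose with CRE in controls, was 350.1, 439 and 282 and 100.3, 285 and 186 CPM, and all 8 had log2 differences below 0, with 4 at an unadjusted p below 0.05 and 0 called by edgeR. The part of these cells in the differences was not tested.

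**Figure D5:**
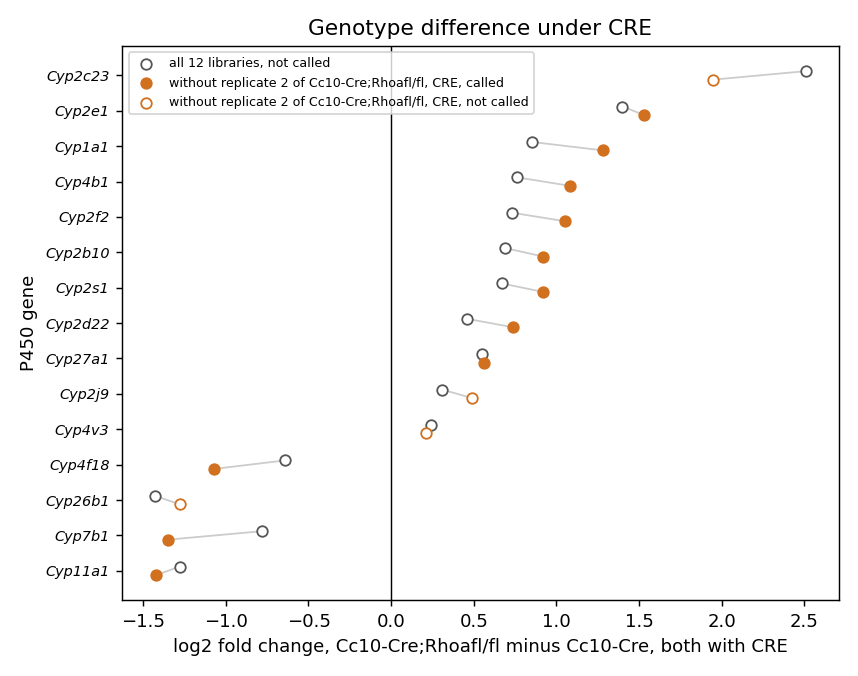
Log2 difference between CKO and control lungs under CRE for 15 P450 genes that were given in full and called under some setting or had an unadjusted p below 0.05, with all libraries (grey) and without replicate 2 of the CKO CRE group (orange; filled where called). By edgeR 0 genes were called with all libraries, and without that replicate 8 of the genes drawn were higher and 3 lower.

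The test of whether CRE acted differently in the genotypes (the interaction) gave 0 P450 calls by edgeR, with 0.0458% of all tested genes called, and 9 at an unadjusted p below 0.05 (background 10.3%). The interaction of *Cyp2f2* was 1.26 ± 0.35 on the log2 scale (change in CKO lungs minus change in controls, adjusted p = 0.345). Without replicate 2 of the CKO CRE group it was 1.57, adjusted p = 7.91e-05. Then 7 P450s were called above 0 and 1 below, against 8.72% and 6.11% of the genes then tested. The others above 0 were *Cyp4b1* at 1.13, *Cyp2b10* at 1.03, *Cyp2s1* at 0.92, *Cyp1a1* at 1.62, *Cyp2d22* at 0.77 and *Cyp2e1* at 2.36, and *Cyp7b1* was below 0 at -1.53. DESeq2 called 2 P450s above 0, against 0.458% of all genes, and limma-voom called 10 above and 2 below, against 14.5% and 10.6%. The CRE and genotype comparisons share libraries and are not independent of one another.

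P450 genes sit in clusters, taken here as members within 1 Mb of each other on mm10. The cluster at chr7:25802475-27158668 holds 13 of them, with 7 tested: *Cyp2s1*, *Cyp2b10*, *Cyp2b19*, *Cyp2g1*, *Cyp2a5*, *Cyp2f2* and *Cyp2t4*. In controls 6 of these 7 fell with CRE and 0 rose, and in CKO lungs 3 fell. Over all tested genes 28.4% fell in controls and 18.5% in CKO lungs. Of 3 other tested genes between them 2 fell in controls. The Cyp4f cluster at chr17:32452723-32947402 was mixed in controls, with 1 of 5 tested members higher and 1 lower. Of 4 other tested genes between them 3 fell in controls. At chr9:57676937-58027023 *Cyp1a1* fell and *Cyp11a1* rose, and 1 of 5 other tested genes between them fell in controls.

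Genes that serve or follow P450s were counted on lists. Beside these counts, 28.6% of all tested genes rose and 28.4% fell in controls, and 20.6% and 18.5% in CKO lungs. Of 10 tested redox partners 2 rose and 5 fell in controls, and 1 rose and 2 fell in CKO lungs. *Por*, the electron donor of all microsomal P450s, was at 349.9, 369 and 365 CPM with PBS and at 186, 158 and 178 CPM with CRE in controls (log2 change -1.02 ± 0.14, adjusted p = 0.000153). *Pgrmc1*, a heme-binding partner of P450s, fell by 1.13 ± 0.09 on the log2 scale (adjusted p = 7.63e-06). *Fdxr*, the mitochondrial ferredoxin reductase, rose by 0.90 ± 0.17 on the log2 scale (adjusted p = 0.000992). Of 12 tested nuclear receptors of P450 induction 1 rose and 4 fell in controls, and 1 rose and 2 fell in CKO lungs, with *Ppara*, the fatty acid receptor, which fell by 1.94 ± 0.32 on the log2 scale (adjusted p = 0.000423) in controls.

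Against the same shares of all tested genes (28.6% and 28.4% in controls, 20.6% and 18.5% in CKO lungs), of 5 flavin monooxygenases 0 rose and 4 fell in controls, and 0 rose and 4 fell in CKO lungs. *Fmo2*, the lung form, went from 1145 ± 46.1 to 184 ± 31.7 CPM in controls (SD, n = 3; log2 change -2.60 ± 0.39, adjusted p = 0.000225 by edgeR). Of 4 epoxide hydrolases 0 rose and 1 fell in controls, and 0 rose and 1 fell in CKO lungs. The member that fell was *Ephx1*, the microsomal enzyme that acts on P450 products (log2 change -1.59 ± 0.14, adjusted p = 1.05e-05 in controls). Of 20 tested conjugation enzymes 1 rose and 8 fell in controls, and 2 rose and 5 fell in CKO lungs. The sulfotransferase *Sult1d1* and the glutathione transferase *Gsta3* fell by 3.58 ± 0.73 on the log2 scale (adjusted p = 0.0015) and 3.44 ± 0.34 on the log2 scale (adjusted p = 1.93e-05) in controls.

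The 59 untested P450s had at most 29 counts in any library, and 16 of them had 0 in all 12. Among them were 27 of the 30 Cyp2c, Cyp2d and Cyp3a genes, most of which are liver enzymes. Their summed counts were 3, 7 and 71 in control PBS, 3, 0 and 7 in CKO PBS, 2, 4 and 5 in control CRE and 0, 49 and 5 in CKO CRE libraries. The 2 libraries with the high sums also had the highest level of hepatocyte markers. That sum was 2.25, 5.06 and 32.8 CPM in control PBS and 3.94, 17.2 and 3.29 CPM in CKO CRE libraries, and 1.43 to 2.09 and 4.07 to 6.82 CPM in the other 2 groups. Some tested P450s were also high there. In control PBS replicate 3 *Cyp2e1* (10.3 against 7.31 and 7.845 CPM) and *Cyp4a32* (3.48 against 1.43 and 1.87 CPM) were highest of their group. *Cyp2c23* had 10 counts in CKO CRE replicate 2, against 6 and 2, but *Cyp2e1* was lowest there (2.70 against 3.815 and 3.58 CPM). The part of liver RNA in the counts of untested or tested P450s was not tested.

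Counts could be shared with other genes in a few cases. Of the tested members 4 (*Cyp2a5*, *Cyp2g1*, *Cyp4a32* and *Cyp4f16*) have a stretch of at least 200 bases that is at least 98% identical to a gene elsewhere, at a locus that does not overlap their own. In *Cyp2s1*, *Cyp2u1* and *Cyp4v3* such a stretch belongs to a gene that overlaps the same locus. *Cyp2f2* shares 274 exon bases with *Gm15883* on the other strand, which was at 0.803 to 10.2 CPM. The library kit does not mark strand, so reads of such pairs cannot be told apart.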

How the data were processed

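Whole-lung RNA of 12 libraries, 3 per group, was analysed from 1 table of raw counts per gene as deposited by the authors. Reads were handled with fastp and STAR on mm10, per the submitters' processing notes. For the counting program and its strand setting, the labels and notes say nothing. Of 54532 gene identifiers 54495 matched GENCODE M21, which gave symbols and positions. The unmatched 37 held at most 0.0064% of a library's counts. Counts were filtered with filterByExpr, scaled by TMM and fitted with edgeR 4.0.16 in R 4.3.3 on all 4 groups, with quasi-likelihood F tests and Benjamini-Hochberg adjustment over 17473 genes. The biological coefficient of variation was 17.4%. SE is the log2 fold change divided by the root of F. The fit was tested on simulated data. Near-identical copies were searched with blastn 2.17.0.

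Values in every library (counts for *Cyp2b19*, *Cyp2c23* and *Cyp2g1*) are given for P450s among the 12 highest by mean RPKM or called with a log2 change of at least 1, and values for list genes with up to the 2 largest called changes each way, with Por, Ahr and Ephx1. A few list genes that this rule names are not reported here. *Cyp1b1*, the other P450 given by library, was chosen after its values were seen. Members and lists were chosen with earlier results of these data known. Alternatives were DESeq2 1.42.0 (size factors and Wald test) and limma-voom with quality weights (limma 3.58.1), which gives each library its own weight. It is called limma-voom throughout. Others were the replicate number as a block, sex as a covariate, no filter on low counts, only the groups compared, and each library left out.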

Additional observations from a re-analysis of the deposited data

How the results depend on the processing

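The CRE effect in controls was stable in its counts, with 5 to 7 P450s higher and 18 to 20 lower on leaving out each library. In CKO lungs these ranges were 3 to 6 and 9 to 14, and with only the groups compared 3 rose and 6 fell. The genotype difference under PBS had 0 to 1 lower on leaving out a library, 1 by limma-voom and 1 with only the groups compared, each time *Cyp2f2*. Under CRE the higher calls numbered 0 to 8 and the lower 0 to 4 on leaving out a library, 5 higher by DESeq2, 12 higher and 3 lower by limma-voom, and 6 higher and 1 lower (*Cyp26b1*) without the low-count filter. The interaction had 0 to 7 above 0 and 0 to 1 below on leaving out a library, 2 above by DESeq2, 10 above and 2 below by limma-voom, and 1 above without the filter. The cause was not tested. For CRE in CKO lungs 2 uncalled genes changed sign. *Cyp4v3* was at -0.02 with sex as a covariate and ran from -0.05 to 0.13 on leaving out a library, with -0.01 without PBS replicate 3 or CRE replicate 2. *Cyp26b1* ran from -0.38 to 0.1, the latter without PBS replicate 1. The called rise of *Cyp7b1* in CKO lungs was 1.32 by limma-voom, and that of *Cyp26b1* in controls 0.59 (adjusted p = 0.29).

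With the replicate number as a block (replicate block) 5 P450s rose and 19 fell in controls, 5 rose and 11 fell in CKO lungs, and 0 were called in the other comparisons. Over 18 same-numbered pairs the correlation of deviations from the group means ran from -0.033 to 0.176, with 4 above 0.1. Between libraries of different number it ran from -0.247 to 0.176. The labels give no pairing, and these values cannot decide whether the numbers pair the samples.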

Other observations

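*Cyp2a4*, a steroid hydroxylase of the same chromosome 7 cluster as *Cyp2a5* and nearly identical to it, did not pass the low-count filter. Its 29 counts in 1 library were the most of any untested P450 in a single library. It had 0, 0 and 3 counts in control PBS libraries, 0, 2 and 0 in CKO PBS libraries, 17, 7 and 29 in control CRE libraries and 0, 9 and 2 in CKO CRE libraries. *Cyp2a5* fell with CRE in the same control lungs.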
